A study of Mus musculus with 18 samples.

Results

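The mouse genes named as C-type lectin receptors were followed in the left ventricle over the first 72 h after acute myocardial infarction (AMI). They were taken as every gene symbol that starts with Clec and a digit, which gave 32 of the 24419 symbols measured. Of these 32 genes, 21 had an FPKM (fragments per kilobase of transcript scaled to mapped reads, a level that can be compared between genes because it is per length) of at least 1 in at least 1 mouse and were tested. The other 11 did not reach that level in any mouse and are described by their levels.

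RNA from the heart was sequenced in 18 male C57BL/6 mice, all 8 weeks old and all anaesthetised with sodium pentobarbital, with 3 mice in each of 6 groups. The 3 control mice are the sham samples of the study. In the other 5 groups the proximal left anterior descending coronary artery was ligated, and the infarcted tissue was taken 10 min, 1 h, 6 h, 24 h or 72 h later. Each group had its own mice, so a time course here is a series of separate animals, and nothing in the labels says in which order or on which day they were handled, so the p-values measure the spread between these mice.

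A C-type lectin receptor carries a domain that in many family members binds glycans and in others binds proteins or lipids. Receptors such as Mincle (Clec4e), MCL (Clec4d), Dectin-2 (Clec4n), Dectin-1 (Clec7a) and MDL-1 (Clec5a) sit on neutrophils, monocytes and macrophages and signal through the kinase Syk, directly or through the adaptors FcRγ (Fcer1g) and DAP12 (Tyrobp), towards Card9 and cytokine genes. The DCIR proteins (Clec4a genes) and MICL (Clec12a) are myeloid receptors of the same fold, among them inhibitory members that recruit the phosphatase Shp-1 (Ptpn6). The name also covers ligands of NK cell receptors, receptors of blood vessels, secreted proteins and Clec16a, an intracellular protein of mitophagy.

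Of the 32 genes, 24 lie on chromosome 6, and 21 of them fall into a pair of runs of neighbours. The first, chr6:122921848-123289870 in GRCm38, holds 9 genes from Clec4a1 to Clec4e. The second, chr6:128662385-129472779, holds 12 genes from Clec2h to Clec7a. Clec4d and Clec4e, which have the lowest control levels of all tested members, are next to each other with a gap of 6.524 kb. The 250 bases before the RefSeq transcription start (GRCm38.p6) are shown for this pair and for Clec4a1 and Clec4a3 in the same run, because the pair was called higher at 6 h and the other two were first called at 24 h. All are given 5′ to 3′ on the strand of the gene, and capitals mark GAGGAA or its reverse complement TTCCTC, a core bound by PU.1, the transcription factor of myeloid cells.

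Clec4d, chr6:123261857-123262106, plus strand: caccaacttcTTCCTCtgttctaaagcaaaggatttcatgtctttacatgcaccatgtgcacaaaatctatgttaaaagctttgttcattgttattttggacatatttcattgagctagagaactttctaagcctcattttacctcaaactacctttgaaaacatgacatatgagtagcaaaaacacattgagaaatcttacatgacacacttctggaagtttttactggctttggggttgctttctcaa
Clec4e, chr6:123289872-123290121, minus strand: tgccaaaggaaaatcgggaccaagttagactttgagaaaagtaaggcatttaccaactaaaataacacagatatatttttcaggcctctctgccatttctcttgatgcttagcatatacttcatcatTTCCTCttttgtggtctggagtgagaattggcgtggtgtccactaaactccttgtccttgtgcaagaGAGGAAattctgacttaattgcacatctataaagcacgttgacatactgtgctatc
Clec4a1, chr6:122921598-122921847, plus strand: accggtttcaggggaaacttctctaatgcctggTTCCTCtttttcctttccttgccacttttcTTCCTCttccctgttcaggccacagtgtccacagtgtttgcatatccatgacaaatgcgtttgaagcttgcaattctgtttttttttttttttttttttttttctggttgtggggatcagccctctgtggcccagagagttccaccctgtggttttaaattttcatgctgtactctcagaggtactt
Clec4a3, chr6:122952265-122952514, plus strand: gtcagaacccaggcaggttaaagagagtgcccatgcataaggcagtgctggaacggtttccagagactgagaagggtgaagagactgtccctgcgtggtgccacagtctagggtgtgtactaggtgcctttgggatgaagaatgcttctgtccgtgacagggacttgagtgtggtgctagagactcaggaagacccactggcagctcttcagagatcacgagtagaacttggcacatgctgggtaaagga

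The core stands 240 bases before the start of Clec4d, 123 and 56 bases before that of Clec4e, and 217 and 187 bases before that of Clec4a1, and the Clec4a3 window holds none. Over both strands it was present in 23.1% of 27025 promoter windows of the same length, in 13 of the 25 Clec genes with a RefSeq window, and in 10 of the 17 that were also tested. An AP-1 motif (TGANTCA) was present in 6.87% of all windows, in 5 of the 25 and in 2 of the 17. A C/EBP motif (TTGCNNAA) was present in 9.55% of all windows, in 4 of the 25 and in 4 of the 17. The PU.1 core was also present in the windows of Clec2l, Clec11a, Clec14a, Clec16a and Clec18a, and it was absent from that of Clec4a2. These are matches of letters and not measured binding sites.

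The sums of FPKM were between 542418 and 600467 per mouse, and the relative depth, estimated from the lowest values, was between 0.812 and 1.32 times that of control mouse 1. Cardiomyocyte markers summed to 49183 to 52173 FPKM in control hearts and to 18709 to 22994 FPKM at 72 h, when macrophage markers had gone from 265 to 306 FPKM in control to 4060 to 5405 FPKM. In such bulk tissue, more cells of a type and more RNA per cell cannot be told apart. A pair of mice stood apart within their groups: neutrophil markers summed to 1002, 117 and 377 FPKM in 6-h AMI mice 1, 2 and 3, and to 210, 42.9 and 968 FPKM in 24-h AMI mice 1, 2 and 3. The median log2 difference from control over all genes tested was 0.29 at 72 h and became 0.03 under median-of-ratios scaling and -0.12 under quantile normalization, and small differences at 72 h are to be read against that shift.

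At 10 min and at 1 h no Clec gene passed the test. A gene is called here at an adjusted p under 0.05 (limma on log2(FPKM + 1), Benjamini-Hochberg over all genes tested). Of the 21 tested members, 0 were called at 10 min, where 0.248% of all genes tested were called higher and 0.0978% lower, and 0 at 1 h, where 0.669% were called higher and 0.0526% lower. An unadjusted p under 0.05 was reached by 2 members at 10 min, when 1955 of all 13297 genes tested reached it. Both were lower, Clec5a by the log2 difference of -0.30 (adjusted p = 0.166) and Clec9a by that of -0.32 (adjusted p = 0.294). At 1 h an unadjusted p under 0.05 was reached by 3 members, beside 1673 of all 13300 genes tested. Among these 3 were Clec4e, at 0.0747, 0.191 and 0.259 FPKM against 0.0262, 0 and 0.0376 FPKM in control, and Clec1b, at 0.748, 1.48 and 0.740 FPKM against 0.342, 0.484 and 0.393 FPKM. In both the 1-h mice were all above the control mice, while the adjusted p was 0.344 for Clec4e and 0.256 for Clec1b, and Clec4e was still far under 1 FPKM. The third member, Clec4a3, was lower (log2 difference -0.26, adjusted p = 0.362).

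More members were called at each later time. At 6 h, 5 of 21 members were higher and 2 lower (5 and 1 under median-of-ratios scaling), when 11.6% of all genes tested were higher and 16.8% lower. At 24 h, 12 were higher and 2 lower, against 26.2% and 11.4% of all genes, and at 72 h, 14 were higher and 4 lower, against 53.1% and 24.2%. At these 3 times the tested members had median log2 differences of 0.11, 0.47 and 2.09, beside -0.08, 0.13 and 0.29 for all genes tested. Of the 21 tested, 3 passed the level filter only through the 72-h mice (Clec11a, Clec2i and Clec4b1), so these had to differ at that time. Clec4d, Clec4e and Clec4n passed only through mice of 6 h, 24 h and 72 h. These are the times at which they were called, so the filter favoured those calls as well. The 5 comparisons with control share the same 3 control mice.

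The thresholds of the study (p under 0.05 without adjustment, more than 2 times the mean FPKM or less than 0.5 times) took in fewer members as lower. No member met them at 10 min, when 0.684% of all genes tested were higher and 0.526% lower. At 1 h they took in Clec4e and Clec1b as higher and none as lower (1.12% and 0.429% of all genes). The 6-h AMI samples had 5 members up and 1 down (6.76% and 3.52%), the 24-h samples 11 and 1 (11.7% and 2.81%) and the 72-h samples 13 and 0 (26.5% and 8.44%). Between 6 h and 24 h they took in 6 higher and 0 lower (6.97% and 1.51%), and between 24 h and 72 h 9 and 0 (15.5% and 3.26%).

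**Figure D1:**
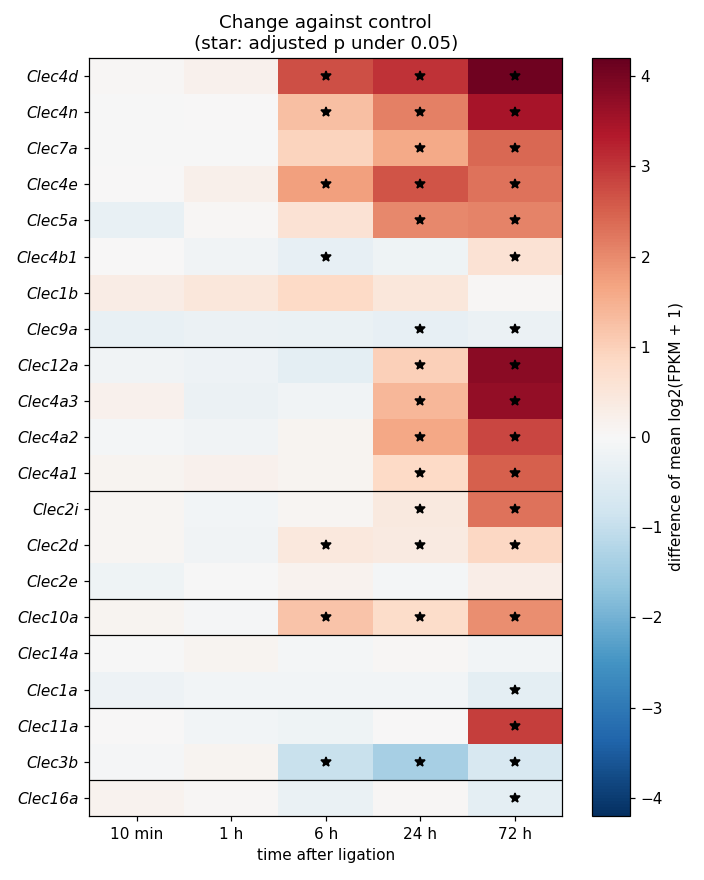
Difference from control of mean log2(FPKM + 1) for the 21 tested Clec genes (rows, grouped by role) at each time after ligation (columns), in red where higher and in blue where lower, with a star at an adjusted p under 0.05. The stars begin at 6 h, and the darkest cells are those of Clec4d (4.10), Clec12a (3.80) and Clec4a3 (3.69) at 72 h.

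Of the 8 Syk-coupled members tested, 3 were called higher at 6 h (Clec4d, Clec4e and Clec4n), when 11.6% of all genes tested were higher. These 3, among the 5 Clec genes higher at 6 h, passed the level filter only through mice of 6 h or later. Of the same 8 members, 5 were called higher at 24 h and 6 at 72 h, beside 26.2% and 53.1% of all genes tested. At each of the 3 times 1 was called lower, beside 16.8% (6 h), 11.4% (24 h) and 24.2% (72 h) of all genes. Clec4d, the MCL receptor that pairs with Mincle, measured 0.0249, 0.140 and 0.0775 FPKM in the control mice and at most 0.356 FPKM in any mouse up to 1 h. It stood at 13.1, 2.62 and 5.76 FPKM at 6 h, at 6.29, 2.44 and 25.9 FPKM at 24 h and at 15.2, 16.6 and 21.1 FPKM at 72 h. Every mouse from 6 h on was above every control mouse, and the 24-h mice spread both below and above the 72-h mice. On the log2(FPKM + 1) scale, which understates changes of genes this low in control, the difference from control was 2.70 ± 0.43 (SE, n = 3 and 3, limma adjusted p = 0.00533) at 6 h, 3.02 ± 0.66 (adjusted p = 0.0152) at 24 h and 4.10 ± 0.12 (adjusted p = 2.82e-08) at 72 h.

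Clec4e encodes Mincle, a receptor for glycolipids and for the nuclear protein SAP130 of dying cells. It was listed at 0.0262, 0 and 0.0376 FPKM in control. At 6 h it measured 5.34, 0.678 and 2.62 FPKM, at 24 h 2.70, 2.03 and 21.8 FPKM and at 72 h 3.22, 4.61 and 4.11 FPKM. Again 6-h mouse 1 and 24-h mouse 3 were the highest of their groups, and no AMI mouse from 6 h on overlapped the control mice. The log2 difference from control was 1.73 ± 0.42 at 6 h (limma adjusted p = 0.0223), 2.64 ± 0.71 at 24 h (adjusted p = 0.0270) and 2.28 ± 0.11 at 72 h (adjusted p = 4.02e-07). From 24 h to 72 h the difference was -0.36, with a 95% interval from -1.99 to 1.27, and without 24-h mouse 3 it was 0.56 with an adjusted p of 0.018.

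Clec4n (Dectin-2, a receptor for mannan) was called higher at the same 3 times. The control mice measured 0.329, 0.257 and 0.423 FPKM and the 6-h mice 3.08, 1.42 and 2.26 FPKM, with no overlap. It then reached 3.80, 2.28 and 11.6 FPKM at 24 h and 12.6, 11.9 and 17.3 FPKM at 72 h, where every mouse was above every 24-h mouse. The log2 difference was 1.25 ± 0.18 at 6 h (limma adjusted p = 0.00391), 2.13 ± 0.45 at 24 h (adjusted p = 0.0136) and 3.47 ± 0.14 at 72 h (adjusted p = 1.06e-07). Between 24 h and 72 h it was 1.34 ± 0.45 (adjusted p = 0.0463), a call that was lost without 24-h mouse 1 or 2 or any single 72-h mouse (adjusted p up to 0.140). The call was also lost with a pseudocount of 0.1, with no level filter, and under other scalings.

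Clec5a (MDL-1) and Clec7a (Dectin-1, the beta-glucan receptor) were not called at 6 h and were called at 24 h and 72 h. Clec5a measured 1.24, 1.24 and 1.00 FPKM in control, 4.10, 1.01 and 2.41 FPKM at 6 h, 5.76, 3.38 and 21.3 FPKM at 24 h and 6.88, 9.38 and 8.48 FPKM at 72 h. Clec7a measured 0.799, 1.02 and 0.512 FPKM in control, 5.25, 0.891 and 2.30 FPKM at 6 h, 2.98, 2.07 and 11.1 FPKM at 24 h and 8.31, 7.46 and 9.49 FPKM at 72 h. In both genes 6-h mouse 2 lay among the control mice, and without it both were called at 6 h (adjusted p = 0.0145 for Clec5a and 0.0172 for Clec7a). The difference at 72 h was 2.09 ± 0.11 for Clec5a (adjusted p = 6.46e-07) and 2.41 ± 0.13 for Clec7a (adjusted p = 5.32e-07). At 24 h it was 2.01 ± 0.54 for Clec5a (adjusted p = 0.0269) and 1.58 ± 0.47 for Clec7a (adjusted p = 0.0380). GENCODE M21 lists Clec7a as a polymorphic pseudogene, a class for genes that are coding in some strains.

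**Figure D2:**
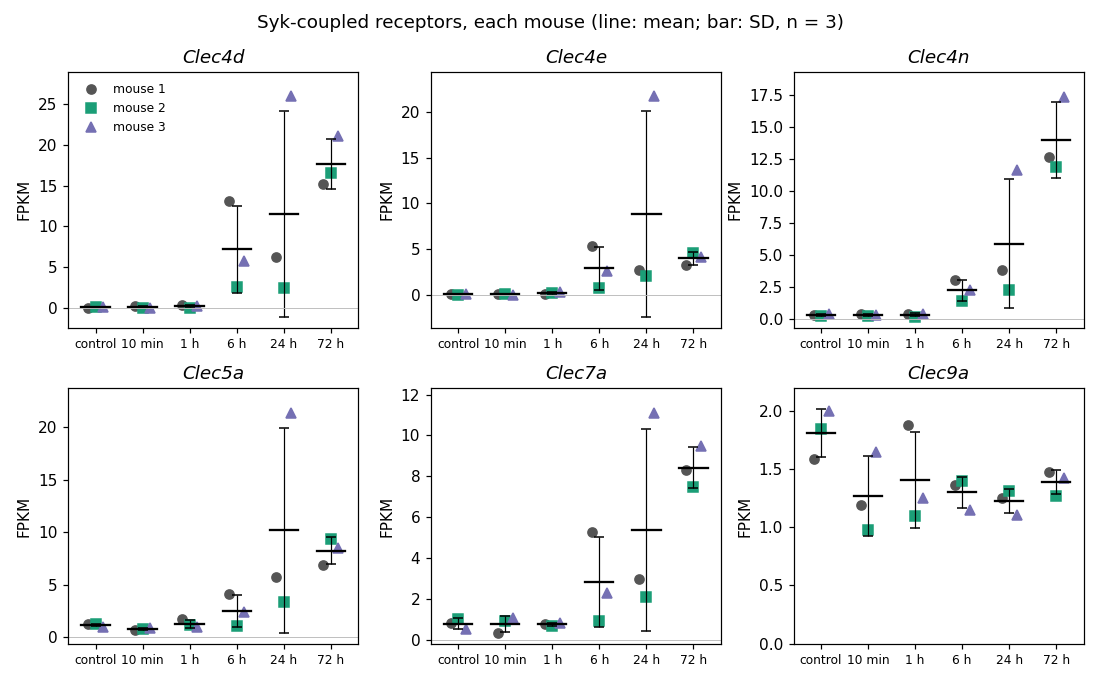
FPKM (vertical axes, each panel on its own scale) of 6 Syk-coupled receptors in every mouse by group, with the group mean as a line and the SD as a bar (n = 3). In Clec4d, Clec4e, Clec4n, Clec5a and Clec7a the triangle of 24-h AMI mouse 3 stands above both other 24-h mice, while Clec9a stays between 0.974 and 1.99 FPKM in all 18 mice.

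At 24 h these 5 calls rested on few mice. Without any single control mouse, Clec4d (adjusted p up to 0.0595), Clec4e (up to 0.0827), Clec5a (up to 0.0812) and Clec7a (up to 0.110) were no longer called, and Clec4n was lost without control mouse 1 or 2 (up to 0.0553). With no level filter Clec4e, Clec5a and Clec7a were lost as well, and under quantile normalization Clec7a. At 6 h, Clec4e was lost without any single control mouse or 6-h mouse 3 (up to 0.0704). The 24-h mouse with 25.9 FPKM of Clec4d was also the one with 968 FPKM of neutrophil markers and, without it, the 24-h difference of Clec4d was 2.21 with an adjusted p of 0.00236. Without it, 14 members in place of 10 were higher at 72 h than at 24 h, and Clec4d (log2 difference 1.88, adjusted p = 0.00117), Clec5a (0.75, adjusted p = 0.0140) and Clec7a (1.42, adjusted p = 0.00019) were among them. The neutrophil list had 6 of 6 members called higher at 6 h and the monocyte list 5 of 5, and the part of these cells in the Clec values was not tested.

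**Figure D3:**
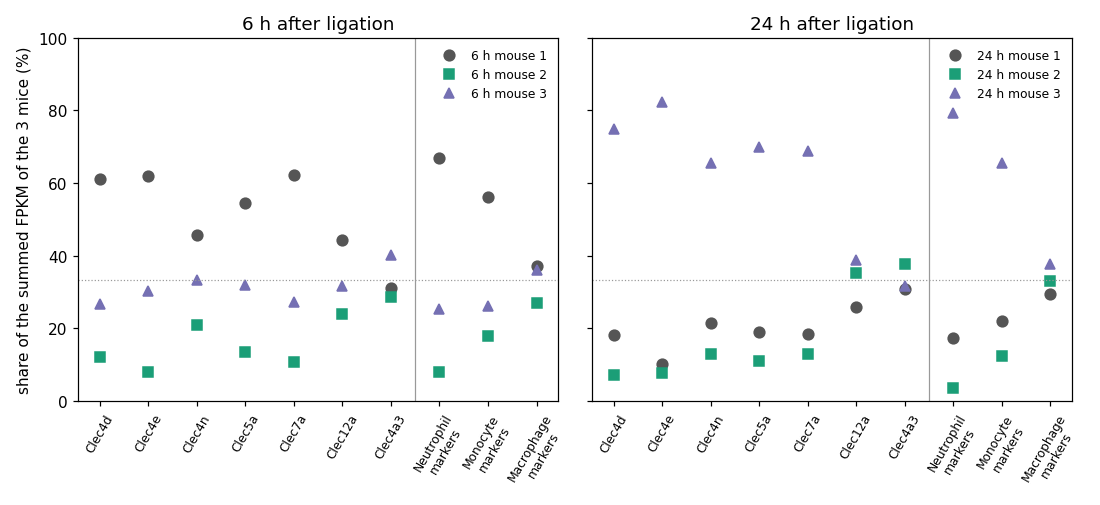
Share of each mouse (vertical axis, percent of the summed FPKM of the 3 mice of its group) for 7 Clec genes and the summed markers of 3 cell types, at 6 h on the left and at 24 h on the right, with the dotted line at an equal share. The 5 Syk-coupled receptors and Clec12a are highest in 6-h mouse 1 and in 24-h mouse 3, as the neutrophil, monocyte and macrophage marker sums are. The shares of Clec12a and Clec4a3 at 24 h lie nearer the line.

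The other 3 tested Syk-coupled members, Clec9a, Clec1b and Clec4b1, had lower or less steady values. Clec9a (DNGR-1, a receptor of dendritic cells for the actin filaments of dead cells) measured 1.59, 1.84 and 1.99 FPKM in control, 1.25, 1.31 and 1.11 FPKM at 24 h and 1.47, 1.27 and 1.42 FPKM at 72 h. It was lower at 24 h by the log2 difference of -0.34 ± 0.10 (limma adjusted p = 0.0415) and at 72 h by that of -0.23 ± 0.09 (adjusted p = 0.0425). The 24-h call was lost without any 1 of the 6 mice (adjusted p up to 0.142), with no level filter and with the replicate number as a block. The 72-h call was lost without control mouse 2 or 3 or 72-h mouse 2 or 3 (up to 0.143). It was also lost with all mice scaled to the same sum, with all 18 mice in one fit and with the replicate block. Clec1b (CLEC-2, the platelet receptor for podoplanin) was not called at any time and had its highest value, 4.10 FPKM, in 6-h mouse 1, against 0.342 to 0.484 FPKM in control. That mouse also had the highest platelet marker sum of its group (51.0 FPKM, the others 17.8 and 28.2 FPKM). At 72 h the platelet sum was 191 to 209 FPKM, against 17.4 to 20.5 FPKM in control, with Clec1b at 0.347 to 0.553 FPKM. Under quantile normalization Clec1b was called lower at 72 h (-0.44, limma adjusted p = 0.00104). The part of platelets in the Clec1b values was not tested. Clec1b and Clec9a share 184 exonic bases on the same strand, so reads from that stretch cannot be told apart. Clec4b1 (DCAR) measured 0.309, 0.414 and 0.487 FPKM in control, 0.119, 0.207 and 0 FPKM at 6 h and 1.46, 0.638 and 1.46 FPKM at 72 h. It was called lower at 6 h (log2 difference -0.34 ± 0.10, adjusted p = 0.0382). That call was lost without any control mouse or 6-h mouse 1 or 3 (up to 0.123) and under median-of-ratios scaling. It was also lost with all 18 mice in one fit and with the replicate number as a block. Clec4b1, which passed the level filter only through the 72-h mice, was called higher at 72 h (0.62 ± 0.16, adjusted p = 0.0073). Quantile normalization reduced this difference to 0.07 (adjusted p = 0.665). Its call from 24 h to 72 h (0.79, adjusted p = 0.0301) was lost without 24-h mouse 1 or 72-h mouse 1 or 3 (up to 0.102) and under quantile normalization (0.128). With the replicate number as a block that call was lost as well.

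The DCIR family and MICL rose between 6 h and 24 h and again between 24 h and 72 h. All 4 tested genes were called higher in both steps, and none was called at 6 h against control. They were the only 4 of the 21 members called between 6 h and 24 h, with 0 lower. An unadjusted p under 0.05 was reached by 6 members, all of them higher, beside 4855 of all 13328 genes tested in either direction. In that step 12.5% of all genes tested were higher and 1.94% lower. In the next, 10 members were higher and 1 lower (8 and 2 under median-of-ratios scaling, 8 and 4 under quantile normalization), beside 29.7% and 13.5% of all genes. Clec12a (MICL, an inhibitory receptor for uric acid crystals) measured 2.08, 1.54 and 1.93 FPKM in control and 1.52, 0.821 and 1.09 FPKM at 6 h. It measured 3.70, 5.02 and 5.55 FPKM at 24 h and 37.8, 34.9 and 43.8 FPKM at 72 h. All 6-h mice were below all control mice, and the 24-h and 72-h groups were each wholly above the group before. The log2 difference was -0.42 ± 0.14 at 6 h (limma adjusted p = 0.0640). Clec12a was called lower at 6 h without 6-h mouse 1 (adjusted p = 0.0243), with all 18 mice in one fit and with the replicate number as a block. From 6 h to 24 h the difference was 1.42 ± 0.18 (adjusted p = 0.0123), and from 24 h to 72 h it was 2.80 ± 0.15 (adjusted p = 3.78e-05).

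Clec4a3 (DCIR3) measured 1.39, 1.94 and 1.89 FPKM in control, 1.39, 1.27 and 1.79 FPKM at 6 h, 5.72, 6.98 and 5.84 FPKM at 24 h and 34.5, 30.8 and 38.0 FPKM at 72 h. The 6-h mice overlapped the control mice, and the 2 later groups were apart from all others. Its log2 difference was 1.53 ± 0.14 from 6 h to 24 h (limma adjusted p = 0.00884) and 3.69 ± 0.11 from control to 72 h (adjusted p = 2.84e-08). Clec4a2 (DCIR, with an inhibitory motif in its tail) went from 1.63, 2.08 and 1.79 FPKM in control to 6.23, 7.69 and 9.63 FPKM at 24 h and 16.6, 18.6 and 21.7 FPKM at 72 h, and differed by 2.81 ± 0.11 at 72 h (adjusted p = 9.8e-08). Clec4a1 (DCIR4) went from 1.00, 0.907 and 1.24 FPKM to 2.52, 2.95 and 2.41 FPKM and to 11.0, 9.93 and 11.3 FPKM at the same times, and differed by 2.52 ± 0.09 at 72 h (adjusted p = 7.62e-08). In both genes the 3 groups were apart from each other.

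**Figure D4:**
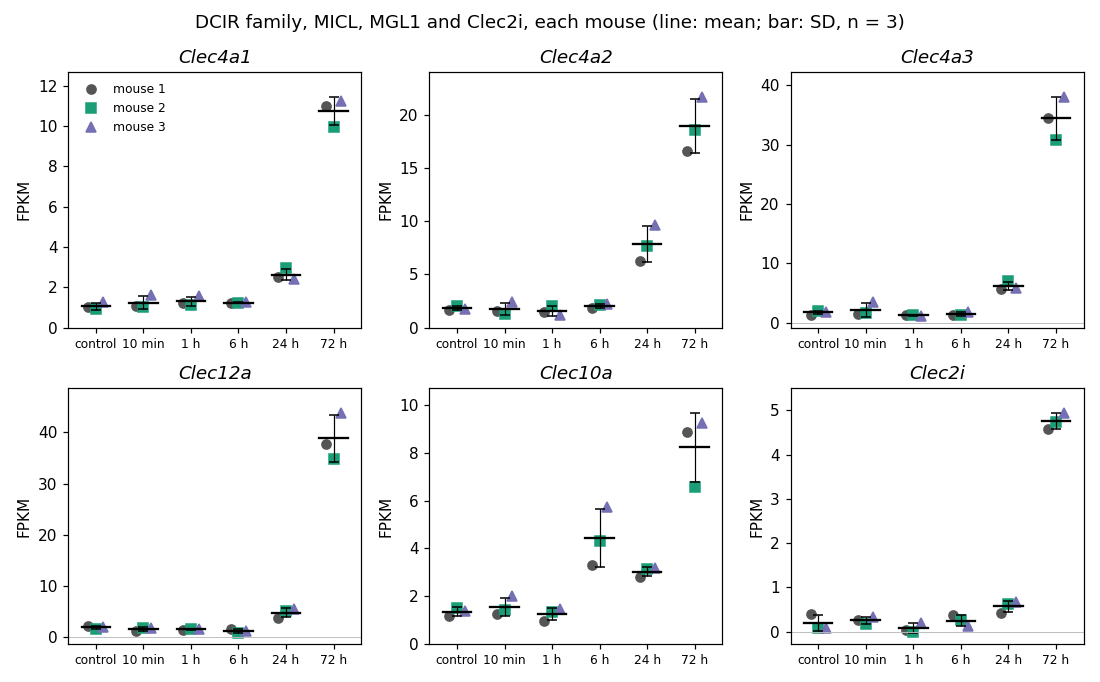
FPKM (vertical axes, each panel on its own scale) of 3 DCIR genes, Clec12a, Clec10a and Clec2i in every mouse by group, with the group mean as a line and the SD as a bar (n = 3). The DCIR genes and Clec12a reach between 9.93 and 43.8 FPKM at 72 h, while Clec10a is already higher than control at 6 h.

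The calls from 6 h to 24 h were the less certain of these. With the replicate number as a block, no call of this step was kept. Without 6-h mouse 2 none of the 4 was called (adjusted p = 0.0610 for Clec12a, 0.0843 for Clec4a1, 0.0610 for Clec4a2 and 0.0604 for Clec4a3), and likewise without 6-h mouse 3 (between 0.0501 and 0.0570). Without 24-h mouse 2, only Clec4a3 was called (adjusted p = 0.0448), and Clec4a1 was also lost without 6-h mouse 1 and under quantile normalization. None of the 8 Syk-coupled members was called between 6 h and 24 h, with wide intervals, such as -1.46 to 2.11 for Clec4d and -0.95 to 2.77 for Clec4e, and whether the DCIR and Syk-coupled groups differ in this step was not tested. The macrophage marker list had 2 of 7 members higher and 1 lower at 6 h, 5 of 7 higher at 24 h and 7 of 7 at 72 h. Its sum was 216 to 296 FPKM at 6 h and 586 to 746 FPKM at 24 h, and its part in the DCIR values was not tested. The DCIR genes are paralogous neighbours, so reads may have been divided between them in ways the deposited values do not show.

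Most tested genes of the first chromosome 6 run were higher by 24 h. All 7 tested genes of the run from Clec4a1 to Clec4e were higher at 72 h, and 6 of the 7 at 24 h, when the exception was Clec4b1, against 53.1% and 26.2% of all genes tested. At 6 h the run held 3 called higher (Clec4d, Clec4e and Clec4n) and 1 lower (Clec4b1). All of these passed the level filter only through mice of 6 h or later. In the run from Clec2h to Clec7a, 8 were tested and at 72 h 4 were higher (Clec2i, Clec2d, Clec12a and Clec7a) and 2 lower (Clec9a and Clec1a), which is close to the 53.1% and 24.2% of all genes tested.

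Clec10a (MGL1, an endocytic receptor for galactose and N-acetylgalactosamine on macrophages) was raised at 6 h, lower in level at 24 h and highest at 72 h. The control mice measured 1.17, 1.52 and 1.36 FPKM, the 6-h mice 3.30, 4.31 and 5.72 FPKM, the 24-h mice 2.80, 3.14 and 3.16 FPKM and the 72-h mice 8.88, 6.59 and 9.25 FPKM. All mice from 6 h on were above all control mice, and the 24-h mice were all below the 6-h mice. The log2 difference from control was 1.19 ± 0.17 at 6 h (limma adjusted p = 0.0035), 0.78 ± 0.11 at 24 h (adjusted p = 0.00472) and 1.97 ± 0.13 at 72 h (adjusted p = 1.63e-06). From 6 h to 24 h it was -0.41 ± 0.18 (adjusted p = 0.140), which did not pass the test. Within the groups, 6-h mouse 1 was the lowest for Clec10a and the highest for Clec4d, while 24-h mouse 3 was the highest for both.

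The Clec2 genes encode ligands of NKR-P1 receptors of NK cells, and 3 of 7 were tested. Clec2d (Clr-b) was the most abundant, at 23.5, 25.1 and 22.2 FPKM in control, 28.6, 33.5 and 36.6 FPKM at 6 h, 27.1, 31.1 and 34.9 FPKM at 24 h and 47.7, 40.3 and 44.6 FPKM at 72 h. The groups from 6 h on did not overlap the control mice, and the 6-h and 24-h mice overlapped each other. The log2 difference from control was 0.46 ± 0.11 at 6 h (limma adjusted p = 0.0194), 0.37 ± 0.11 at 24 h (adjusted p = 0.0355) and 0.88 ± 0.08 at 72 h (adjusted p = 1.45e-05), and under median-of-ratios scaling the last was 0.56. The 6-h call was lost without control mouse 1 or 3 (adjusted p up to 0.0789). The 24-h call was lost without any control mouse or 24-h mouse 2 (up to 0.123) and under median-of-ratios scaling and quantile normalization (up to 0.126). With the replicate number as a block the 24-h call was lost as well. From 24 h to 72 h the difference was 0.50 (adjusted p = 0.0148), a call lost without 72-h mouse 1 or 3 (up to 0.0600) and under median-of-ratios scaling (0.0508).

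Clec2i (Clr-g) appeared mainly at 72 h, at 4.58, 4.74 and 4.94 FPKM, and no mouse of another group was above 0.661 FPKM. It passed the level filter only through the 72-h mice. The difference from 24 h was 1.87 ± 0.11 (limma adjusted p = 4.16e-05). A small difference between 24 h and control (0.41 ± 0.13, adjusted p = 0.0490) was lost without control mouse 2 or 3 or 24-h mouse 2 or 3 (up to 0.152). It was also lost under other filters and scalings and with the replicate number as a block (up to 0.305). Clec2e (Clr-a) was not called at any time, with a 72-h difference of 0.28 and an interval from -0.21 to 0.77. Without 72-h mouse 1, which had 0.184 FPKM the lowest of the 3, it was called higher (0.54, adjusted p = 0.00721).

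Receptors of the vessel wall showed small differences. Clec14a, an endothelial receptor that binds multimerin-2, measured 6.03, 5.66 and 6.73 FPKM in control and 4.99, 5.98 and 5.89 FPKM at 72 h, with overlapping groups. Its log2 difference at 72 h was -0.11, with an interval from -0.32 to 0.11, and it was called lower at 72 h under median-of-ratios scaling and quantile normalization (difference down to -0.61). Clec1a, a receptor of endothelial and myeloid cells for fungal melanin, measured 13.8, 16.4 and 17.3 FPKM in control and 11.3, 12.5 and 11.2 FPKM at 72 h. All 72-h mice were below all control mice, and the difference was -0.40 ± 0.09 (limma adjusted p = 0.0038). The endothelial marker list had 3 of 6 members lower at 72 h and none higher, with sums of 515 to 568 FPKM in control and 448 to 557 FPKM at 72 h.

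The secreted members moved in opposite ways. Clec3b encodes tetranectin, a plasminogen-binding protein of plasma and matrix. It measured 30.8, 29.5 and 31.4 FPKM in control, 16.6, 13.8 and 16.5 FPKM at 6 h, 15.6, 13.2 and 6.12 FPKM at 24 h and 25.7, 12.5 and 20.7 FPKM at 72 h. All mice from 6 h on were below all control mice, with 24-h mouse 3 the lowest. It was lower by the log2 difference of -0.93 ± 0.09 at 6 h (limma adjusted p = 0.00112), -1.41 ± 0.29 at 24 h (adjusted p = 0.0131, and up to 0.0547 without control mouse 1 or 2) and -0.67 ± 0.21 at 72 h (adjusted p = 0.0176). From 24 h to 72 h the difference was 0.74, with an interval from -0.10 to 1.58.

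Clec11a, a secreted growth factor for blood progenitors and bone, was at 0.316 to 0.842 FPKM in control and at 0.337 to 0.731 FPKM at 6 h and 24 h. At 72 h it was at 10.7, 12.2 and 10.3 FPKM, the only group above 1 FPKM and the only group through which it passed the level filter. It differed by 2.91 ± 0.13 from control (limma adjusted p = 2.43e-07) and by 2.88 ± 0.11 from 24 h (adjusted p = 1.81e-05). Fibroblast markers had 6 of 6 members higher at 72 h, with sums of 210 to 222 FPKM in control and 1919 to 2278 FPKM at 72 h, and their part in the Clec11a value was not tested.

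Clec16a measured 29.5, 30.1 and 31.7 FPKM in control and 25.6, 18.6 and 31.6 FPKM at 6 h. It measured 39.0, 29.2 and 27.0 FPKM at 24 h and 24.1, 23.8 and 20.7 FPKM at 72 h. The 72-h mice were below all control and 24-h mice, while 6-h mouse 2 was below every 72-h mouse. At 6 h the log2 difference from control was -0.29 (limma adjusted p = 0.232, and 0.0464 without 6-h mouse 3). At 72 h it was -0.40 ± 0.08 (adjusted p = 0.00121). The difference from 24 h, -0.44 ± 0.15, was just called (adjusted p = 0.0489) and was lost without 24-h mouse 1 or 2 or any 72-h mouse (up to 0.167). It was also lost with no level filter, with the same sum of FPKM, and with no variance trend. All 6 cardiomyocyte markers were lower at 72 h as well, and their part in the Clec16a value was not tested.

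**Figure D5:**
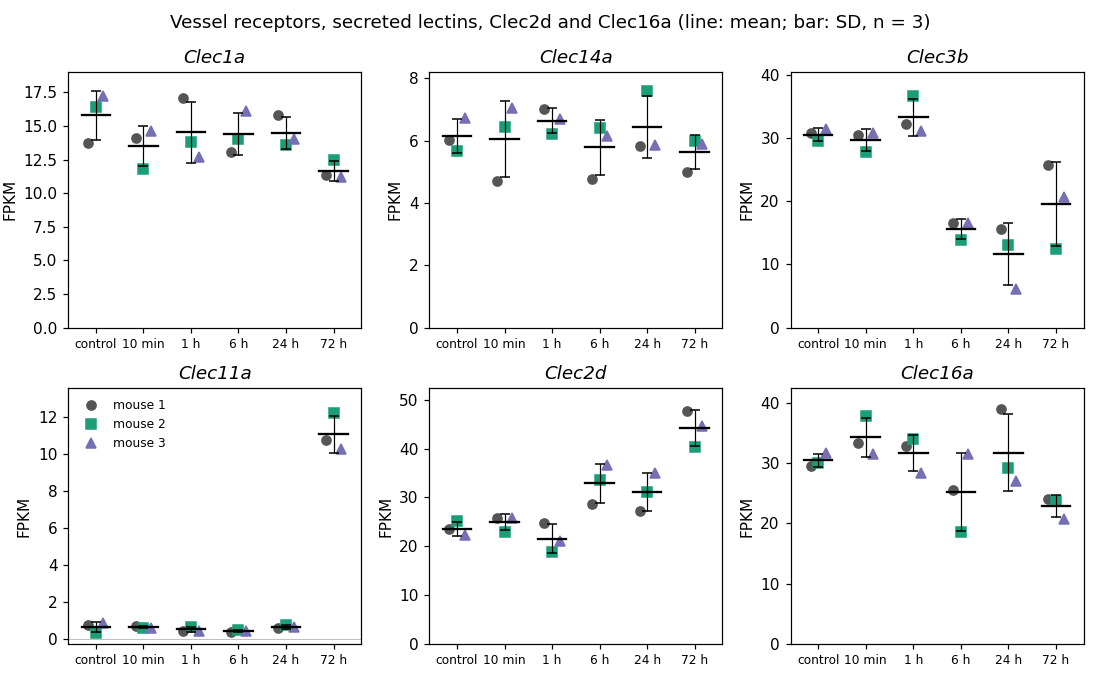
FPKM (vertical axes, each panel from 0 on its own scale) of Clec1a, Clec14a, Clec3b, Clec11a, Clec2d and Clec16a in every mouse by group, with the group mean as a line and the SD as a bar (n = 3). Clec3b falls at 6 h and has its lowest mouse, 6.12 FPKM, at 24 h. Clec11a stands above 1 FPKM in the 72-h mice alone, through which it passed the level filter.

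The 11 members that were not tested had highest values between 0 and 0.624 FPKM. Clec2h and Clec3a were listed at 0 in all 18 mice, and Clec2f, a pseudogene in GENCODE M21, and Clec4b2 in 16 of 18. The highest value was that of Clec4g, a lectin of sinusoidal endothelium, at 0.604, 0.465 and 0.624 FPKM in control, 0.0546, 0.231 and 0.182 FPKM at 6 h and 0.507, 0.297 and 0.608 FPKM at 72 h. Its 10-min, 1-h, 6-h and 24-h mice were all below its control mice. It shares 146 exonic bases with Gm16553 on the other strand, which a protocol that is not stated to keep strand cannot separate. Clec4f (the Kupffer cell receptor), Clec18a, Clec12b, Clec2l, Clec4a4 and Clec2g reached at most 0.494, 0.552, 0.383, 0.276, 0.367 and 0.176 FPKM.

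Most genes of the signalling chain behind these receptors were higher by 24 h. The list of 14 adaptor and signalling genes held 7 genes called higher in the 6-h AMI samples, 11 in the 24-h and 13 in the 72-h samples, with 1 called lower in the last. Of all genes tested, 11.6%, 26.2% and 53.1% were higher at these times. The adaptor Tyrobp was at 4.11 to 5.37 FPKM in control and 87.6 to 116 FPKM at 72 h (log2 difference 4.18, limma adjusted p = 2.82e-08). Fcer1g, which carries Mincle and Dectin-2 signals, went from 3.46 to 4.80 FPKM in control to 75.0 to 83.0 FPKM. Syk itself was higher from 6 h on (1.31 at 6 h, adjusted p = 0.00172), while Card9 was at 0.14 at 6 h (adjusted p = 0.491) and 1.29 at 24 h (adjusted p = 0.0170). Ptpn6, the phosphatase recruited by inhibitory receptors, differed by 3.32 at 72 h. The member called lower, Ptpn11, was named after its values were seen (-0.20, adjusted p = 0.0356).

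Of 13 ligand and partner genes, 9 were tested. The test called 3 higher and 3 lower at 6 h, then 5 higher beside 1 lower (24 h), then 7 higher beside 1 lower (72 h). The shares of all genes tested were 11.6% higher and 16.8% lower, then 26.2% and 11.4%, then 53.1% and 24.2%. Pdpn, the podoplanin that binds CLEC-2, went from 3.94 to 4.39 FPKM in control to 12.5 to 30.0 FPKM at 6 h and 41.4 to 51.3 FPKM at 72 h (log2 difference 3.18, limma adjusted p = 2.41e-08), while Clec1b itself was not called. Annexin A1 (Anxa1), reported to bind Dectin-1, differed by 3.17 at 72 h, and beta-actin (Actb), the ligand of DNGR-1 in its filament form, by 2.63. Sap130, whose product binds Mincle, differed by 0.58 (adjusted p = 9.9e-05), Itga11, an integrin chain paired with Clec11a, by 1.76, and Mmrn2, the partner of Clec14a, by -0.51 (adjusted p = 0.000815).

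Among 32 C-type lectin domain genes with other symbols, 17 were tested. The test called 7 higher and 4 lower at 6 h, 8 higher beside 1 lower at 24 h, and 14 higher beside 2 lower at 72 h, beside the same shares of all genes. The largest 72-h differences were those of Cd72 (3.61), the matrix proteoglycan Vcan (3.02) and the mannose receptor Mrc1 (2.66). Of 10 cytokine and enzyme genes known as targets of the Syk and Card9 route, 7 were tested at 1 h and 8 at the later times. At 1 h, when no Clec gene was called, 4 of the 7 were higher, against 0.669% of all genes tested. Of the 8, 7 were higher at 6 h (11.6% of all genes), 4 at 24 h (26.2%) and 7 at 72 h (53.1%). Cxcl2 was at 0.110 to 0.149 FPKM in control and at 4.12 to 6.08 FPKM at 1 h (log2 difference 2.49, adjusted p = 8.93e-05), and Ptgs2 differed by 2.08 at 1 h (adjusted p = 0.0015). Il1b differed by 4.16 at 6 h (adjusted p = 0.00277), by 3.60 at 24 h (adjusted p = 0.0308) and by 2.92 at 72 h (adjusted p = 7.05e-07). These targets also answer to other receptors, which this comparison does not separate.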

How the data were processed

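The authors trimmed reads with cutadapt 1.18, aligned them to mm10 with HISAT2 2.1.0 and estimated levels with StringTie 1.3.4d. The annotation is not given in the sources used here, and no strand-specific protocol is stated. As deposited, the values are FPKM, 1 row a gene symbol, in 18 columns that were all used (0 columns of per-sample values were left out), without further scaling. A column name was matched to its sample by title, and 4 misspelled names by group and number. FPKM give no counts, so precision comes from the spread between 3 mice.

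The 13333 genes that reached an FPKM of 1 in any sample, the filter of the authors, were compared on log2(FPKM + 1) with limma 3.58.1 (R 4.3.3, lmFit and eBayes with trend), two-sided, on the 6 mice of each comparison (13297 to 13330 genes, since genes at 0 in all 6 drop out). Genes were called at a Benjamini-Hochberg adjusted p under 0.05. Cufflinks, the test of the study, needs reads and was not run. On simulated data for 72 h against control with 13333 genes, 200 of 200 changed genes and 13 of 13133 unchanged genes were called. That simulation gave all genes the same spread, taken from the control mice, in both groups. It changed only genes above a control level that most Clec genes called higher at 72 h do not reach. The 6-h and 24-h mice also spread wider than the control mice, so these counts do not measure how well such calls hold.

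Every Clec gene tested is named with values, and of each pathway list at most 6 genes, those with the 3 largest 72-h differences and partners of a Clec gene. A gene that this rule names is not reported here, though it counts in its list. The Clec genes and all lists were chosen with earlier results of these data known. Ly6g of the neutrophil list was not analysed here. Positions are from GENCODE M21 and promoter windows from RefSeq on GRCm38.p6, which held 25 of the 32 genes. Alternatives were a pseudocount of 0.1, other filters and scalings, 1 fit over 18 samples, a replicate block, no variance trend, the threshold of the study (unadjusted p under 0.05 and ratio over 2) and leaving out each mouse. Tables and plots were made with Python 3.11.15, numpy 2.4.6, pandas 2.3.3 and matplotlib 3.10.9.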

Additional observations from a re-analysis of the deposited data

Results flagged for a closer look

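Several Clec genes differed between neighbouring late times in the test of that difference itself (limma, adjusted p under 0.05, 3 mice a group, no explanation weighed). From 6 h to 24 h the log2 difference was 1.42 for Clec12a, 0.69 for Clec4a1, 1.52 for Clec4a2 and 1.53 for Clec4a3. Each of these calls was lost without 6-h mouse 2 or 3 and with the replicate number as a block (adjusted p up to 0.0843). From 24 h to 72 h it was 2.80 for Clec12a, 1.70 for Clec4a1, 1.18 for Clec4a2, 2.30 for Clec4a3, 1.34 for Clec4n, 0.79 for Clec4b1, 1.19 for Clec10a, 2.88 for Clec11a, 0.50 for Clec2d, 1.87 for Clec2i and -0.44 for Clec16a. The calls from 24 h to 72 h of Clec4n, Clec4b1, Clec2d and Clec16a were each lost without some single mice and under other settings, with an adjusted p of up to 0.140, 0.128, 0.0600 and 0.167.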

How the results depend on the processing

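No called Clec gene reversed its direction under any alternative. By the threshold of the study (unadjusted p under 0.05 and ratio over 2), 2 were higher at 1 h, 1 lower at 6 h, 1 lower at 24 h, 0 lower at 72 h, and 0 lower at 72 h against 24 h. At 6 h, 1 in place of 2 was lower with a mean FPKM of at least 1 or with median-of-ratios scaling. From 24 h to 72 h, 0 in place of 1 were lower with the same sum of FPKM or no variance trend, 2 with median-of-ratios scaling (8 higher) or with all 18 mice in one fit, and 4 with quantile normalization (8 higher). From 6 h to 24 h, all 18 mice in one fit gave 7 higher in place of 4, and 1 lower in place of 0. At 72 h the scalings gave 14 higher and 5 lower, and 13 and 6. With no filter, 8 were higher at 24 h. Same-numbered mice did not deviate together in every pair (correlations from -0.33 to 0.41, with 0 to 3 of 6 mice correlating best with their own number). The numbers were therefore not used as pairs, but with 3 mice a group these correlations cannot exclude a shared handling. With the replicate number as a block, 0 were higher from 6 h to 24 h and 1 lower at 24 h. Leaving out each mouse gave 3 to 7 higher and 1 to 2 lower at 6 h, 5 to 12 and 0 to 1 at 24 h, 14 to 15 and 3 to 4 at 72 h, 0 to 4 and 0 to 0 from 6 h to 24 h, and 7 to 14 and 0 to 2 from 24 h to 72 h, with 0 to 0 at 10 min and 1 h. The cause of these changes was not tested. Genes under about 1 FPKM rest on few reads.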
